A study of Mus musculus with 4 samples.

Results

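Skin that received microneedles loaded with platelet-rich plasma (labelled PRP-MNs) was compared with skin that received platelet-rich plasma without microneedles (labelled PRP), by RNA sequencing of 1 library from each. Platelet-rich plasma is plasma in which the platelets of blood have been concentrated, and a microneedle array delivers its load below the skin surface. Every gene that reached 1 FPKM (a fragment count scaled to transcript length and library size) in at least 1 of these 2 libraries was taken, which gave 13861 of the 25571 genes in the table. A further 2 libraries, labelled MNs and NC, were read beside them, so the series held 4 libraries, 1 from each group. The labels give these abbreviations alone: PRP and MNs are read here from the series title as platelet-rich plasma and microneedles, so that MNs stands for microneedles without plasma, and NC is left as labelled. How PRP was applied is not stated in the labels. The labels give the tissue as mouse skin and give no strain, age, sex, body site, dose, time of harvest or number of animals per library, and none says whether the skin was shaved or otherwise prepared. The series title concerns hair regrowth, and the comparison asks how skin given the plasma through needles differed from skin given the plasma alone.

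Each gene's difference is the log2 ratio of FPKM + 1, PRP-MNs minus PRP, which makes differences of low genes look smaller than they are. A gene was counted as higher or lower where it differed at least 2-fold on that scale. With no replicates there is no p-value or error between animals, and every statement describes these libraries rather than the treatments. In whole skin, fewer cells of a type and less RNA per cell cannot be told apart. Steps between low values corresponded to 17.2 M fragments in PRP-MNs and 15.9 M in PRP, so that 3 fragments on a transcript of 1 kb stood at 0.174 and 0.189 FPKM, limits that cover counting error only. Mitochondrially encoded genes took 12.6% of the FPKM sum in PRP-MNs and 15.5% in PRP. The keratinocyte genes Krt5 (689 against 1848 FPKM) and Krt14 (2055 against 3700.3 FPKM) and the dermal genes Col1a1 (139 against 259 FPKM) and Dcn (316 against 584 FPKM) were abundant in both libraries. Reep2 lay just inside the limit of 1 FPKM, at 1.00 and 0.610 FPKM in PRP-MNs and PRP, and Pakap just outside it, at 0.999 and 0.028 FPKM.

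Skin answers injury in an ordered way. Damaged keratinocytes, platelets and resident immune cells release interleukin-1 and chemokines, neutrophils and monocytes enter from the blood, and vessels, fibroblasts and the epidermis are then rebuilt. Interferons, released on sensing of nucleic acid, switch on antiviral genes in the surrounding cells. The epidermis is renewed from a basal layer whose cells differentiate upward into the cornified barrier, and hair follicles and sebaceous glands grow from the same epithelium.

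In PRP-MNs, 1323 genes (9.54%) were at least 2-fold higher than in PRP and 1039 (7.50%) at least 2-fold lower, while 11499 lay within 2-fold. At 4-fold the counts were 265 higher and 202 lower. The median difference of all genes was 0.08, with quartiles of −0.33 and 0.45. In 716 genes the limit of 1 FPKM was reached in PRP-MNs alone of this pair and in 651 in PRP alone. Such genes tend to differ because of how they were taken. This applies to each list count below that includes a gene under 1 FPKM in PRP-MNs or PRP. Lists of genes of known function were placed against these values, and for each list the number of measured members is given. Among the 67 functional lists, leaving aside gene families added after values were seen, those of myeloid chemokines, monocytes, neutrophils and interferon-stimulated genes had the highest medians and that of epidermal differentiation the lowest.

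**Figure D1:**
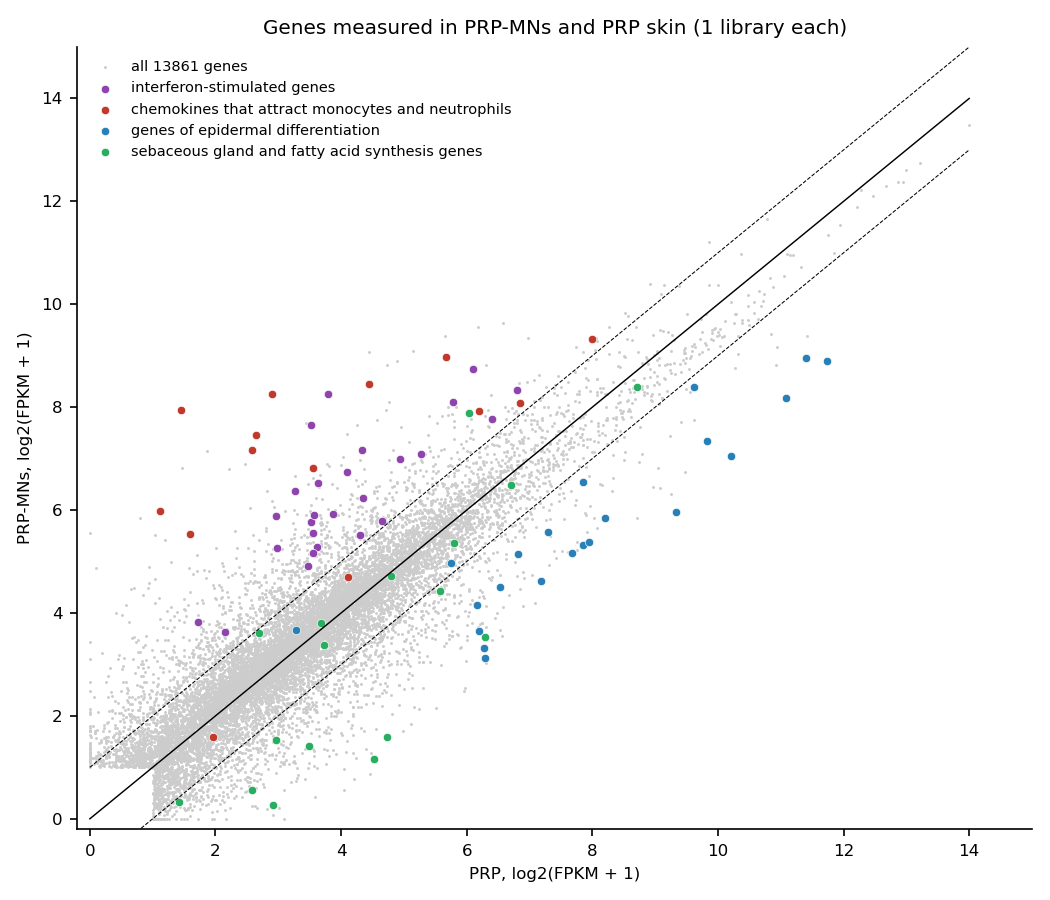
Expression in PRP-MNs (vertical axis) against PRP (horizontal axis), both as log2(FPKM + 1), with 1 point per gene for the 13861 genes measured. The solid line marks equal values and the dashed lines a 2-fold difference on that scale. Interferon-stimulated genes (26 of 26) and most myeloid chemokines (12 of 14) lie above the upper dashed line, and 20 of 22 genes of epidermal differentiation below the lower one, with 9 of 17 sebaceous gland genes (green).

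**Figure D2:**
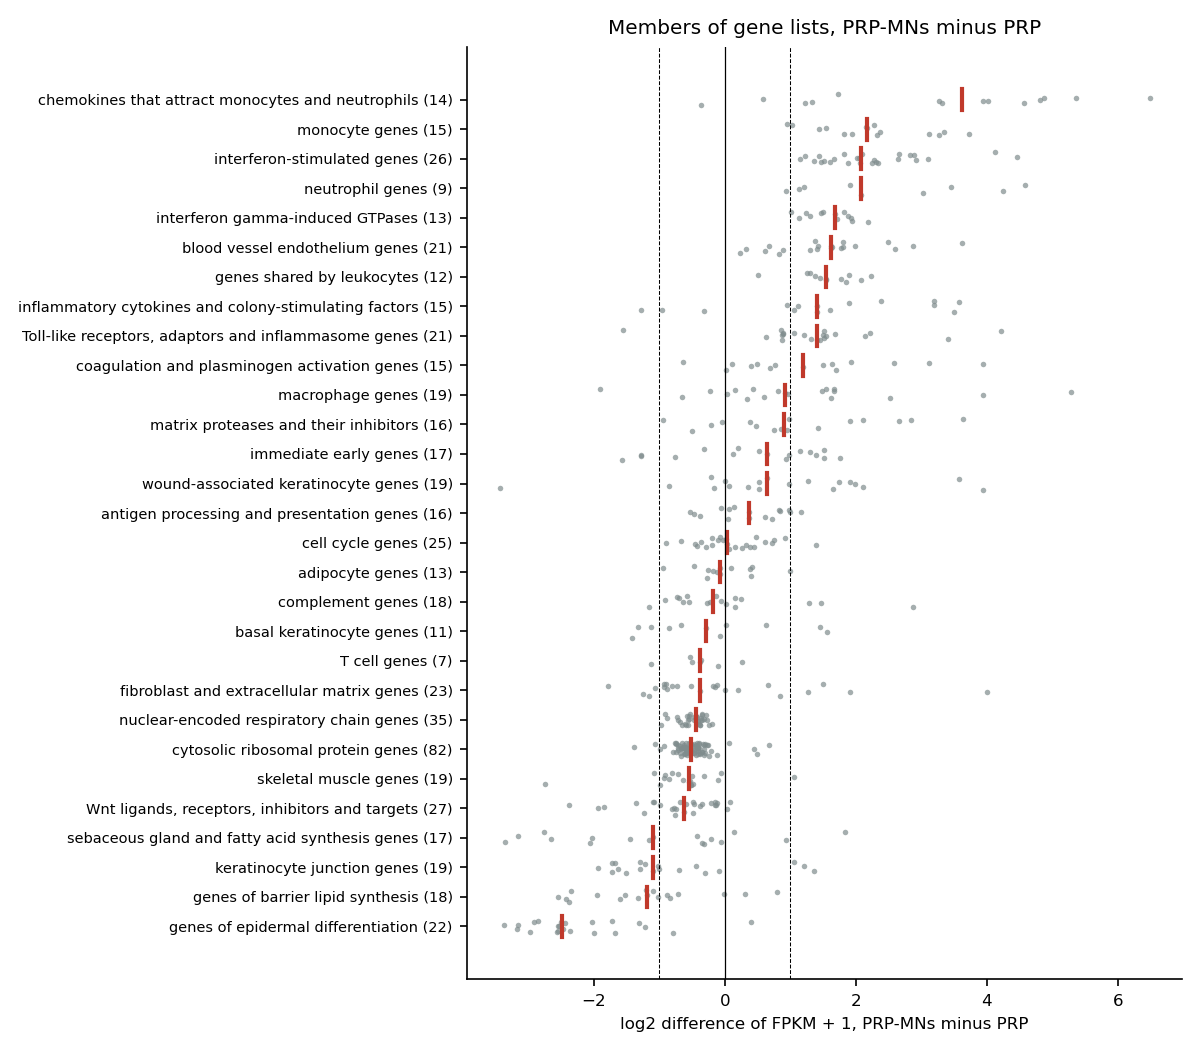
Log2 difference of each measured list member (grey points, PRP-MNs minus PRP, FPKM + 1) and the list median (red bar), with the number of measured members in brackets. Dashed lines mark a 2-fold difference. Medians run from 3.62 for chemokines of monocytes and neutrophils to −2.49 for epidermal differentiation.

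The 15 highest differences included 7 chemokine genes. Cxcl5, which draws neutrophils (ENSMUSG00000029371, GRCm38 chr5:90759360-90761624) reached 244 FPKM in PRP-MNs against 1.74 in PRP, with 35.6 in MNs and a listed 0 in NC, a difference of 6.48 between PRP-MNs and PRP. Its relative Cxcl2 stood at 305 FPKM in PRP-MNs against 6.43 in PRP, with 2.36 in MNs and 2.93 in NC (difference 5.36). For Cxcl2 the PRP-MNs library thus stood alone, whereas for Cxcl5 the MNs library was also raised above PRP. Il1rl1, the receptor of interleukin-33, was at 112 FPKM in PRP-MNs against 1.77 in PRP, with 10.3 in MNs and 0.794 in NC (5.35). Acod1, which makes the antimicrobial metabolite itaconate in activated macrophages, was at 141 FPKM in PRP-MNs against 2.64 in PRP, with 1.86 in MNs and 0.580 in NC (5.29). Ppbp, a chemokine stored in platelets, was at 56.1 FPKM in PRP-MNs against 0.738 in PRP, with 6.06 in MNs and 0.315 in NC (5.04). In each of these genes PRP-MNs was the highest of the 4 libraries, which in respect of PRP follows from how they were picked.

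The rest of the 15 highest differences lay between 4.88 and 4.22. They were the chemokines Cxcl3, Ccl3, Ccl4 and Cxcl10, the cytokine Il1b, the myeloid receptors Clec4e, Clec4d and Trem1, the histamine-forming enzyme Hdc and the inflammasome sensor Nlrp3. Il1b was at 539 FPKM in PRP-MNs against 20.8 in PRP, with 52.5 in MNs and 9.94 in NC. Trem1, an amplifier of myeloid inflammation, was at 45 FPKM in PRP-MNs against 1.04 in PRP, with 2.77 in MNs and 0.243 in NC. Nlrp3 was at 41.5 FPKM in PRP-MNs against 1.28 in PRP, with 2.81 in MNs and 0.436 in NC. Hdc was at 119 FPKM in PRP-MNs against 4.56 in PRP. Mast cells express Hdc, but of 7 measured mast cell genes 2 were higher, Hdc and Kit (2.57 against 0.757 FPKM), and 2 lower, Cpa3 (7.22 against 17.7 FPKM) and Mcpt4 (10.8 against 24.6 FPKM), with a median of −0.22. The proteases Tpsb2 (8.69 against 10.3 FPKM), Cma1 (12.6 against 15.2 FPKM) and Tpsab1 (1.34 against 0.361 FPKM) were under 2-fold.

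The 15 lowest differences lay between −3.58 and −3.09, many of them of epidermal or sebaceous genes. Serpinb3a, a protease inhibitor of keratinocytes, was at 0.826 FPKM in PRP-MNs against 20.9 in PRP, with 1.52 in MNs and 30.6 in NC. Ereg, which encodes a ligand of the EGF receptor, was at 4.81 FPKM in PRP-MNs against 61.8 in PRP, with 12.02 in MNs and 121 in NC. Il1f6, the keratinocyte gene for IL-36 alpha, was at 7.15 FPKM in PRP-MNs against 78.4 in PRP, with 17.03 in MNs and 157 in NC. Loricrin (Lor), Calm5, Krt77, Nrtn, which encodes the nerve growth factor neurturin, and H60c, which encodes a ligand of an activating receptor of lymphocytes, showed the same order: NC highest, then PRP, MNs and PRP-MNs. The other low genes had another order, with MNs or PRP highest. Far2, which makes the fatty alcohols of sebum, was at 1.23 FPKM in PRP-MNs against 21.9 in PRP, with 249 in MNs and 22.5 in NC. Elovl3, a fatty acid elongase, was at 1.99 FPKM in PRP-MNs against 25.6 in PRP, with 244 in MNs and 24.3 in NC. Rnase2b was at 2.61 FPKM in PRP-MNs against 33.5 in PRP, with 157 in MNs and 35.3 in NC. All 3 were highest in MNs. Rarres1, Serpina3j and Serpina3b were likewise highest in MNs, and Thrsp, which promotes fatty acid synthesis, was highest in PRP (44.6 FPKM, against 3.43 in PRP-MNs). Serpinb3a, Serpina3j, Serpina3b and Ccl3 have close relatives, and fragments shared among such copies make their values uncertain.

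**Figure D3:**
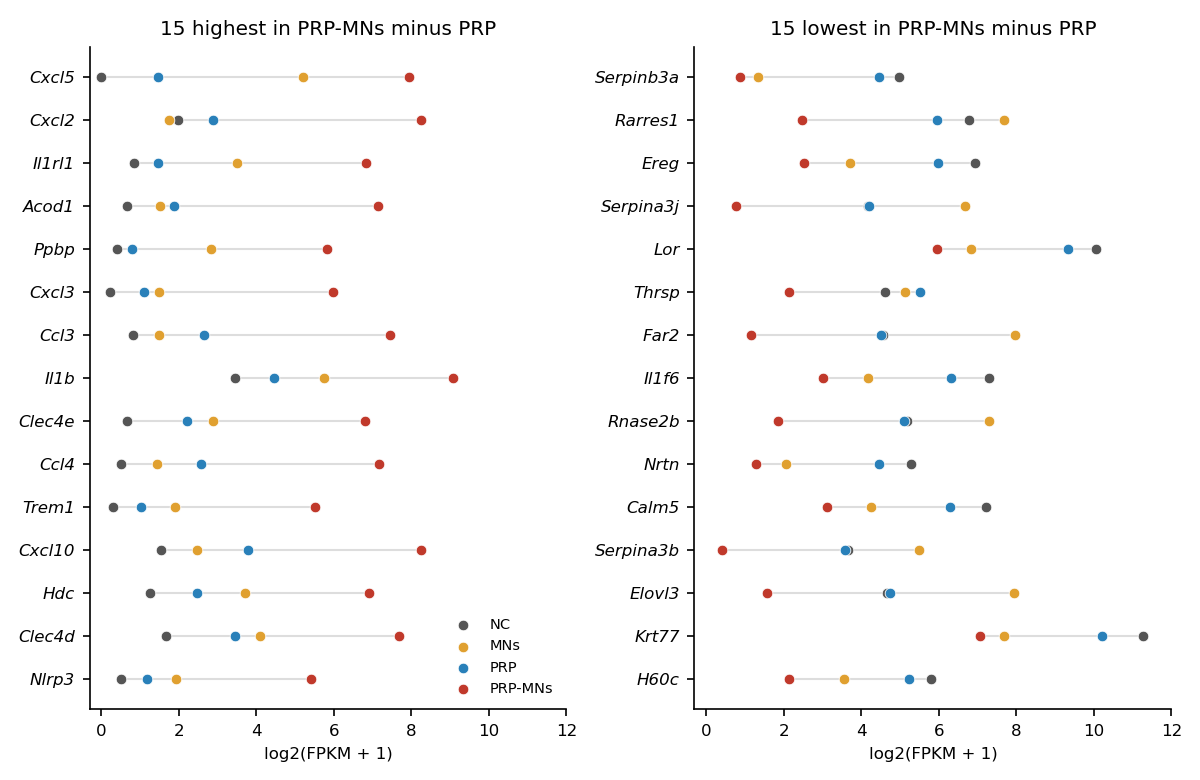
Expression of the 15 genes with the highest (left) and the 15 with the lowest (right) difference between PRP-MNs and PRP, as log2(FPKM + 1) in each of the 4 libraries, with 1 point per library. PRP-MNs is the right-most point for all 15 genes on the left and the left-most for all 15 on the right, while MNs lies at the far right for Far2, Elovl3, Rnase2b, Rarres1, Serpina3j and Serpina3b.

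Chemokines were listed by the cells they are best known to attract. Of 14 chemokines that attract monocytes and neutrophils, 12 were higher in PRP-MNs and none lower, with a median of 3.62 against 0.08 for all genes. The monocyte attractants Ccl2 and Ccl7 were at 350.5 against 20.8 FPKM and 504 against 50.01 FPKM in PRP-MNs and PRP. Cxcl1 was at 45.5 FPKM in PRP-MNs against 2.04 in PRP, with 34.7 in MNs and 2.44 in NC, so that its level in MNs was close to that in PRP-MNs. Ccl3 and Ccl4, by contrast, were at 1.81 and 1.71 FPKM in MNs and at 174 against 5.24 FPKM and 142 against 5.01 FPKM in PRP-MNs and PRP. The 2 members under 2-fold were Ccl11 and Ccl24, which attract eosinophils (0.59 and −0.37). Of 13 measured among 16 listed chemokines that attract lymphocytes and dendritic cells, 1 was higher and 4 were lower (median −0.16). Cxcl13, which attracts B cells, was at 10.1 FPKM in PRP-MNs against 62.9 in PRP, with 16.04 in MNs and 6.45 in NC, and PRP was thus the highest library. Ccl21a, the lymphatic chemokine that guides dendritic cells, was at 0.964 FPKM in PRP-MNs against 15.5 in PRP, with 78.2 in MNs and 13.7 in NC. Ccl20 (0.648 against 8.25 FPKM) and Ccl27a (7.89 against 17.3 FPKM), both made by keratinocytes, were lower as well. The higher member was Cxcl11, an interferon-induced ligand of CXCR3, at 4.17 FPKM in PRP-MNs against 0.0506 in PRP, where the PRP value lay under the 3-fragment limit. Cxcl10, another such ligand that attracts T cells, was listed with the interferon-stimulated genes and not here, and was at 303 against 12.8 FPKM.

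Of 13 measured chemokine receptors of all kinds, 8 were higher and 1 was lower. Cxcr2, the receptor of the neutrophil chemokines, was at 59.4 against 13.3 FPKM, Ccr1 at 98.03 against 10.7 FPKM and the monocyte receptor Ccr2 at 116 against 56.3 FPKM in PRP-MNs and PRP. Ccr7, the receptor for CCL21 on lymphocytes and dendritic cells, was at 4.11 against 1.48 FPKM, higher while Ccl21a was lower, and the vessel receptor Ackr1 was at 23.4 against 10.6 FPKM. The member lower in PRP-MNs was Ackr4, a scavenger of CCL19 and CCL21 (1.09 against 7.52 FPKM).

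Most cytokine genes of acute inflammation were higher in PRP-MNs. Of 15 measured among 20 listed cytokines and colony-stimulating factors, 11 were higher and 1 was lower, with a median of 1.41. Of the higher ones, Osm, Lif, Csf3, Il10, Il23a, Il24 and Il27 reached 1 FPKM in PRP-MNs alone of this pair. The count and the median thus depend in part on how genes were taken. Il6, Tnf, Csf1 and Il15 reached 1 FPKM in both libraries. Osm, a cytokine of myeloid cells that activates keratinocytes and fibroblasts, was at 19.3 FPKM in PRP-MNs against 0.800 in PRP. Csf3, the growth factor of neutrophils, was at 13.1 FPKM in PRP-MNs against 0.538 in PRP. Tnf was at 17.3 FPKM in PRP-MNs against 2.48 in PRP. Il24 was at 14.99 FPKM in PRP-MNs against 0.336 in PRP, with 8.12 in MNs and 0.130 in NC. Il6 was at 18.6 FPKM in PRP-MNs against 1.14 in PRP, with 24.9 in MNs and 0.258 in NC. In Il6 the MNs library was the highest, so that Il6 and Tnf did not share an order: Tnf was at 1.11 FPKM in MNs. Il10, which restrains inflammation, was at 4.18 FPKM in PRP-MNs against 0.697 in PRP. The 1 lower member was Tslp, an epithelial cytokine (1.59 against 5.31 FPKM).

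Genes of the interleukin-1 family went in both directions. Of 17 genes, 8 were higher and 4 lower. The higher ones included Il1b, its decoy receptor Il1r2 (86.5 against 31.7 FPKM), its signalling receptor Il1r1 (38.6 against 11.8 FPKM) and the receptor antagonist Il1rn (256 FPKM in PRP-MNs against 50.8 in PRP, with 16.4 in MNs and 67.5 in NC). The lower ones were Il18 (34.8 against 76.4 FPKM) and the IL-36 subfamily genes Il1f6, Il1f5 (29.4 against 157 FPKM) and Il1f8 (14.6 against 51.7 FPKM). Il1a differed by −0.27 and Il33 by 0.66.

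Every gene on the list of interferon-stimulated genes was at least 2-fold higher in PRP-MNs than in PRP (26 of 26, median 2.08), where 9.54% of all genes were. The list was chosen with earlier results of these data known. In each listed gene PRP-MNs was the highest of the 4 libraries. Rsad2, an antiviral enzyme, was at 201 FPKM in PRP-MNs against 10.5 in PRP, with 2.36 in MNs and 0.733 in NC. Isg15, a ubiquitin-like modifier, was at 427 FPKM in PRP-MNs against 67.5 in PRP, with 17.8 in MNs and 4.77 in NC. Ifit1 was at 143 FPKM in PRP-MNs against 19.2 in PRP, with 5.07 in MNs and 1.08 in NC. Mx1 was at 90.6 FPKM in PRP-MNs against 11.3 in PRP, with 2.29 in MNs and 1.90 in NC. Each of these genes stood in the order PRP-MNs, PRP, MNs, NC. The chemokine Cxcl10 (4.46) and Rsad2 (4.13) had the largest differences. The transcription factor gene Irf9 differed by 1.22. Irf7, which amplifies type I interferon, was at 320.3 FPKM in PRP-MNs against 111 in PRP. In MNs against NC, which share no library with this pair, 13 of the 26 were at least 2-fold higher (median 0.98, where 14.7% of all genes were higher).

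Genes upstream of this response were measured too. Ifnb1, the interferon beta gene, was at 0.985 FPKM in PRP-MNs, just under the limit of 1 FPKM, and was listed at 0 in the other 3 libraries. Ifng was at 0.206 against 0.157 FPKM, also under the limit. Of 13 measured among 18 listed interferon genes, receptors and kinases, 5 were higher and 1 was lower. Irf1 was at 53.2 against 12.6 FPKM, the receptor gene Ifnar1 at 39.9 against 14.3 FPKM, Jak2 at 39.3 against 11.7 FPKM, and the feedback inhibitors Socs1 and Socs3 at 2.77 against 0.724 FPKM and 121 against 38.04 FPKM. All 13 measured interferon gamma-induced GTPases were higher (13 of 13, median 1.68). Gbp5 was at 19.7 FPKM in PRP-MNs against 4.60 in PRP, with 3.08 in MNs and 0.311 in NC. Gbp2 was at 65.3 FPKM in PRP-MNs against 22.4 in PRP, with 13.7 in MNs and 6.01 in NC. Antigen presentation genes, which interferons also induce, differed less: 1 of 16 was higher, the peptide transporter Tap1 (59.3 against 25.98 FPKM). H2-K1 differed by 0.06, B2m by 0.62 and the class II gene H2-Ab1 by −0.54.

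The promoters of 4 interferon-stimulated genes with large differences and of 3 neighbouring chemokine genes are shown. They are examples in which the motif marked below was found, and other members with large differences lacked it. Each is the 250 bases before the RefSeq start on GRCm38.p6, written 5′ to 3′ on the gene's strand. In the first 4, capitals mark the interferon response element (GAAA, any 2 bases, GAAA), searched on both strands.
Isg15 (chr4:156200819-156201068, minus strand): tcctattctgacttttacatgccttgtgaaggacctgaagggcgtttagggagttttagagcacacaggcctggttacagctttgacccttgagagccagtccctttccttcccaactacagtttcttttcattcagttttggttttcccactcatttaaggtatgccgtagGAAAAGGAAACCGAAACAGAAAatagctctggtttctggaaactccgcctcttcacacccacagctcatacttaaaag
Rsad2 (chr12:26456453-26456702, minus strand): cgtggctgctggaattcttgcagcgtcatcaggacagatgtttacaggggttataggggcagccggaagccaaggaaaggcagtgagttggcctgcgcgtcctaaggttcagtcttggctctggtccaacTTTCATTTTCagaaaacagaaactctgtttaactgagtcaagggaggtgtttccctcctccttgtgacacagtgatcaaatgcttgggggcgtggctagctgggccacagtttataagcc
Ifit1 (chr19:34640639-34640888, plus strand): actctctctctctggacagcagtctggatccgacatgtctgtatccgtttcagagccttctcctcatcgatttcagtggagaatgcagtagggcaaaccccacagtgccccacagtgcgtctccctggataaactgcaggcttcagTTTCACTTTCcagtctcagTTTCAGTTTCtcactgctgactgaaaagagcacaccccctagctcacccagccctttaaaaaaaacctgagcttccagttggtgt
Cxcl10 (chr5:92348890-92349139, minus strand): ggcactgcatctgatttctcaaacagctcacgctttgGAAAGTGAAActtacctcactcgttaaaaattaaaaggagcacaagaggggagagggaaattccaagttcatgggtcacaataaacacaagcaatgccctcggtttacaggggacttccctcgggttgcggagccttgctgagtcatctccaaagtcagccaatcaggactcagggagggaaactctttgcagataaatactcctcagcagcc
In the next 3, capitals mark the kappaB motif (GGGA, any 2 bases, TTCC), also searched on both strands, whose matches on the opposite strands overlap by all but 1 base.
Cxcl1 (chr5:90890995-90891244, plus strand): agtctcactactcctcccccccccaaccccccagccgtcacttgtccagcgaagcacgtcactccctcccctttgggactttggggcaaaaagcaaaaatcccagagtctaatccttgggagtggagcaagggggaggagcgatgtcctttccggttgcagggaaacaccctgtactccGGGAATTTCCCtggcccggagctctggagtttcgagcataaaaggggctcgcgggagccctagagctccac
Cxcl2 (chr5:90903649-90903898, plus strand): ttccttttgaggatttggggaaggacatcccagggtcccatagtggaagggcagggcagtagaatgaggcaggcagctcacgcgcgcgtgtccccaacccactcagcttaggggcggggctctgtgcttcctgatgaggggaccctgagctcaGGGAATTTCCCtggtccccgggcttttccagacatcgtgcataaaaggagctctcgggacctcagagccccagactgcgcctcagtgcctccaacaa
Cxcl3 (chr5:90785851-90786100, plus strand): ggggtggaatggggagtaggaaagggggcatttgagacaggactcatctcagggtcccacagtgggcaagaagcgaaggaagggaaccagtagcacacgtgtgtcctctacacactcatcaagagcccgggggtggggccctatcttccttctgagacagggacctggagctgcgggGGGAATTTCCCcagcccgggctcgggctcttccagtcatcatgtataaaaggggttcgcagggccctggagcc

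The element begins 78 bases before the start in Isg15, where 3 copies overlap, 120 before it in Rsad2, 104 and 85 before it in Ifit1, and 213 before it in Cxcl10. The kappaB motif begins 71, 97 and 73 bases before the start of Cxcl1, Cxcl2 and Cxcl3. Over all 32851 promoter windows of 300 bases in the RefSeq table, 3.44% held the interferon element and 1.47% the kappaB motif. The interferon element was found in 12 of the 20 interferon-stimulated genes that the table holds, but these are 76.9% of the 26 measured, too few for a comparison of shares. Among those without it were Oasl1, Cmpk2 and Ifit2, which differed by 3.10, 2.92 and 2.65 between PRP-MNs and PRP. The kappaB motif was found in 3 of the 8 myeloid chemokine genes that the table holds of 14 measured, Cxcl1, Cxcl2 and Cxcl3, and not in the windows of Ccl3, Ccl6, Ccl8, Ccl9 and Ccl12. Matches of letters are a description and do not show that a factor was bound.

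Most sensors of microbial and damaged-cell products were higher. Of 21 Toll-like receptors, adaptors and inflammasome genes, 14 were higher and 1 was lower, with a median of 1.41. Cd14, the co-receptor for lipopolysaccharide, was at 201 FPKM in PRP-MNs against 18.03 in PRP, with 16.8 in MNs and 5.04 in NC. Tlr2 was at 26.6 against 4.92 FPKM, Tlr13, a receptor for bacterial RNA, at 39.1 against 8.08 FPKM and Casp4 at 35.8 against 11.9 FPKM. The lower member was the adaptor Pycard, at 9.95 FPKM in PRP-MNs against 31.1 in PRP, with 19.6 in MNs and 51.6 in NC. Of the 5 Fc gamma receptor genes and their adaptor, 4 were higher, with the activating receptors Fcgr1 and Fcgr4 at 142 against 27.5 FPKM and 69.5 against 24.98 FPKM and the inhibitory receptor Fcgr2b at 52.3 against 31.6 FPKM.

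Markers of the myeloid cells themselves moved with these genes, and their part in the differences above was not tested. Genes shared by leukocytes were higher in 11 of 12 cases (median 1.54), with Ptprc, the CD45 gene, at 82.2 FPKM in PRP-MNs against 22.1 in PRP, with 26.5 in MNs and 4.92 in NC. Their summed levels in PRP-MNs, PRP, MNs and NC were 1767, 625, 661 and 220.1 FPKM. Of 15 monocyte genes, 14 were higher (median 2.17), and their summed level was 3316, 752, 354 and 46.3 FPKM in the same order. Slfn4 was at 663 FPKM in PRP-MNs against 49.3 in PRP. Ly6c2, a surface marker of inflammatory monocytes, was at 651 FPKM in PRP-MNs against 125 in PRP. Slfn4 and Ly6c2 were the largest members of the summed level in PRP-MNs. Whether that sum reflects the number of monocytes or the level per cell was not tested. Chil3 was at 274 FPKM in PRP-MNs against 26.1 in PRP. Plac8 was the member under 2-fold, at 408 against 211 FPKM. Ly6c2, Slfn4 and Chil3 have near relatives whose fragments could be shared.

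Among 9 measured of 14 listed neutrophil genes, 8 were higher (median 2.08). Of these, Ly6g and Mmp8 reached 1 FPKM in PRP-MNs alone of this pair. The count and the median thus depend in part on how genes were taken. The summed level was 1337 FPKM in PRP-MNs and 420.1 FPKM in PRP. Csf3r, the receptor of the neutrophil growth factor, was at 89.5 FPKM in PRP-MNs against 10.1 in PRP, with 15.9 in MNs and 0.736 in NC. Mmp8, a neutrophil collagenase, was at 14.5 FPKM in PRP-MNs against 0.423 in PRP. Retnlg was at 24.9 FPKM in PRP-MNs against 5.88 in PRP. Ly6g, which defines mature neutrophils, was at 1.19 FPKM in PRP-MNs, about 13.1 fragments, and PRP lists it at 0. The granule genes Elane, Mpo, Ltf, Camp and Ngp of neutrophil precursors were under 1 FPKM in PRP-MNs and PRP. S100a8 and S100a9, which keratinocytes also make, were at 205 against 107 FPKM and 626 against 269.7 FPKM.

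Macrophage genes had no common size of difference. Of 19 measured, 8 were higher and 1 was lower (median 0.92). Spp1, which encodes osteopontin, was at 545 FPKM in PRP-MNs against 34.4 in PRP, with 38.4 in MNs and 4.74 in NC. The scavenger receptor Msr1 was at 73.3 against 11.9 FPKM, Cd68 at 246 against 79.7 FPKM and Nos2 at 3.18 against 0.322 FPKM. Some other macrophage genes were nearer to equal, with Csf1r at 39.3 against 28.9 FPKM, Adgre1 at 37.3 against 24.4 FPKM and C1qa at 87.3 against 102 FPKM. Mrc1 was at 62.4 FPKM in PRP-MNs against 21.6 in PRP, with 131 in MNs and 9.63 in NC. Cd163 was at 10.6 FPKM in PRP-MNs against 8.12 in PRP, with 38.3 in MNs and 6.03 in NC, both highest in MNs. Retnla, a gene of alternatively activated macrophages, was the lower member, at 7.55 FPKM in PRP-MNs against 30.98 in PRP, with 58.7 in MNs and 127 in NC.

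Few lymphoid genes differed 2-fold. Of 7 measured among 14 listed T cell genes, 0 were higher and 1 was lower, Cd3g (3.91 FPKM in PRP-MNs against 9.68 in PRP, with 3.21 in MNs and 17.1 in NC). No natural killer gene of 7 measured differed 2-fold, with Gzmb at 7.79 against 3.71 FPKM and Gzma at 6.999 against 3.88 FPKM. None of the 7 B cell genes reached 1 FPKM. Of 11 measured genes of Langerhans and dendritic cells, 3 were higher and 2 lower. Cd207, which encodes langerin of Langerhans cells, was at 0.970 FPKM in PRP-MNs against 11.3 in PRP, with 4.43 in MNs and 23.3 in NC. Epcam, which Langerhans cells and epithelia share, was at 13.1 FPKM in PRP-MNs against 66.6 in PRP, with 47.4 in MNs and 89 in NC, whereas the dendritic cell genes Itgax (4.93 against 1.53 FPKM) and Cd209a (12.9 against 4.41 FPKM) were higher in PRP-MNs.

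Local acute-phase genes had another pattern, with 2 of 11 higher and 4 lower in PRP-MNs. Saa3, serum amyloid A3, was at 86.2 FPKM in PRP-MNs against 501 in PRP, with 277 in MNs and 4.40 in NC. Saa1 and Saa2 were at 3.11 against 17.2 FPKM and 1.28 against 17.95 FPKM, so that PRP was the highest of the 4 libraries for all 3 Saa genes, which have near-identical copies. Orm1 was at 32.5 against 170.5 FPKM, while Hp (539 against 424 FPKM) and Lcn2 (72.9 against 74.6 FPKM) were close to equal. Ptx3, a pentraxin made at the site of injury, was at 35.7 FPKM in PRP-MNs against 5.97 in PRP. Of 18 complement genes, 3 were higher and 1 was lower (median −0.18), where 9.54% of all genes were higher and 7.50% lower. C3 was at 50.2 against 81.8 FPKM, and the anaphylatoxin receptors C5ar1 (62.5 against 7.64 FPKM) and C3ar1 (56.1 against 19.6 FPKM), both found on myeloid cells, were higher.

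Genes of epidermal differentiation were lower nearly throughout. Of 22 measured, 20 were lower by 2-fold or more and none higher, with a median of −2.49. Lor, whose product fills the cornified envelope, was at 61.1 FPKM in PRP-MNs against 643 in PRP, with 113 in MNs and 1058 in NC. Filaggrin (Flg) was at 162 FPKM in PRP-MNs against 902 in PRP, with 296 in MNs and 1382 in NC, and the suprabasal keratins Krt1 and Krt10 at 287 against 2169.6 FPKM and 475 against 3428 FPKM. Each of these stood in the order NC, PRP, MNs, PRP-MNs. The cross-linking enzymes Tgm1 (30.2 against 53.02 FPKM) and Tgm3 (11.7 against 8.68 FPKM) were the members under 2-fold. The summed level of the list was 2428, 13879, 4751 and 26244 FPKM (order: PRP-MNs, PRP, MNs, then NC). NC was the highest library for 22 of the 22 genes and PRP-MNs the lowest for 19. In MNs against NC 21 were at least 2-fold lower (median −2.31), where 6.51% of all genes were lower.

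Basal keratinocyte genes differed less. Of 11, 2 were higher and 3 lower (median −0.29), and their summed level was 3065, 5917, 5303 and 6740.3 FPKM (order: PRP-MNs, PRP, MNs, then NC). The keratins Krt5 and Krt14 differed by −1.42 and −0.85, the master regulator Trp63 was at 22.4 against 50.1 FPKM and the anchoring collagen Col17a1 at 47.6 against 120.5 FPKM. Itga6 and Itgb4, the integrin of hemidesmosomes, differed by −0.08 and −0.29. Lama3, a laminin chain of the basement membrane, was higher (20.5 against 6.83 FPKM).

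The barrier and its junctions went with differentiation. Of 18 genes of barrier lipid synthesis, 12 were lower and 0 higher (median −1.19). Aloxe3, a lipoxygenase of the lipid envelope, was at 4.82 against 21.6 FPKM, Elovl4 at 72.6 FPKM in PRP-MNs against 212 in PRP, with 659 in MNs and 300.1 in NC. The lipid transporter Abca12 was at 14.05 against 33.7 FPKM. Of 19 junction genes, 12 were lower and 3 higher (median −1.10). Desmoplakin (Dsp) was at 89.7 against 279 FPKM, Cldn1, the claudin of the epidermal barrier, at 24.6 against 80.97 FPKM and Cdh1 at 33.3 against 67.8 FPKM. The gap junction genes Gjb2 (162 against 62.6 FPKM) and Gjb6 (26.6 against 12.3 FPKM) and the desmocollin Dsc2 (7.004 against 2.46 FPKM) were the 3 that were higher.

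Keratins and other genes of the wound edge did not follow. Of 19 wound-associated keratinocyte genes, 8 were higher and 1 was lower, Ereg, with a median of 0.64. Krt6a, Krt6b, Krt16 and Krt17, which are switched on in activated keratinocytes, were at 1325 against 923 FPKM, 901 against 895 FPKM, 1053 against 1184 FPKM and 463 against 443 FPKM, all under 2-fold. Plaur, the receptor of urokinase, was at 110.2 FPKM in PRP-MNs against 6.21 in PRP, with 21.03 in MNs and 2.78 in NC. Hbegf was at 44.9 against 12.6 FPKM, the fibronectin receptor chain Itga5 at 43.3 against 9.24 FPKM and Sprr1a at 645 against 266 FPKM. Leukocytes also express Plaur, Itga5 and Hbegf, and their share in these values was not tested.

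Sebaceous gland genes were lower in PRP-MNs than in PRP, and both libraries lay below MNs. Of 17 measured, 9 were lower and 1 was higher (median −1.10), and MNs was the highest library for 17. Krt79, a keratin of the gland duct, was at 10.6 FPKM in PRP-MNs against 77.1 in PRP, with 565 in MNs and 101 in NC. Awat1, a wax synthase, was at 1.68 FPKM in PRP-MNs against 10.2 in PRP, with 112 in MNs and 10.03 in NC. The fatty acid synthase Fasn was at 20.4 FPKM in PRP-MNs against 46.5 in PRP, with 116 in MNs and 29.01 in NC. Scd1 was near equal between the pair at 335 against 420.0 FPKM. The higher member was Plin2, a lipid droplet protein that macrophages express as well (234 against 64.8 FPKM). Of 17 genes of cholesterol handling, 2 were lower, Dhcr7 (11.97 against 26.97 FPKM) and Fdps (64.8 against 133 FPKM), and 2 higher, Ch25h (10.7 against 0.858 FPKM) and the exporter Abcg1 (18.9 against 8.14 FPKM). These counts lie near the shares of all genes, 7.50% lower and 9.54% higher. Ch25h encodes the interferon-induced cholesterol 25-hydroxylase.

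Few hair shaft genes were measured. Of 22 listed hair shaft and inner root sheath genes 2 reached 1 FPKM in PRP-MNs or PRP, Krt84 (0.443 against 2.49 FPKM) and Krt75 (2.81 against 2.20 FPKM). Of 10 measured stem cell genes, 3 were lower and 0 higher, with Krt15, a keratin of the bulge, at 12.6 FPKM in PRP-MNs against 63 in PRP, with 313 in MNs and 78.3 in NC. Lgr6 was at 0.416 FPKM in PRP-MNs against 2.23 in PRP, with 4.06 in MNs and 5.69 in NC. Cd34 was at 57.3 against 74.5 FPKM and Sox9 at 2.51 against 1.72 FPKM. Among 9 measured regulators of the hair matrix and lineages, 3 were lower, Gata3 (4.50 FPKM in PRP-MNs against 25.3 in PRP, with 10.7 in MNs and 37.6 in NC), Sox21 (1.18 against 6.09 FPKM) and Dlx3 (2.41 against 8.26 FPKM), and 2 higher, Runx1 (25.6 FPKM in PRP-MNs against 3.80 in PRP, with 8.26 in MNs and 1.83 in NC) and Runx3 (4.61 against 1.55 FPKM), which blood cells also express. Lef1 was under 1 FPKM in both libraries.

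Of 10 measured dermal papilla genes, from the mesenchymal cells that instruct the follicle, 4 were higher (median 0.93), where 9.54% of all genes were. Those were Inhba, a subunit of activin (10.1 FPKM in PRP-MNs against 0.695 in PRP, with 4.25 in MNs and 0.415 in NC), the proteoglycan gene Vcan (45.3 FPKM in PRP-MNs against 8.57 in PRP, with 16.3 in MNs and 1.33 in NC), Sox18 (14.6 against 5.90 FPKM) and Trps1 (5.40 against 1.93 FPKM). Vcan is also a monocyte gene, and Inhba reached 1 FPKM in PRP-MNs alone of this pair. Which cells held the higher genes was not tested. Alpl, an enzyme marker of the papilla, was at 3.20 against 1.30 FPKM, under 2-fold after the pseudocount, and Crabp1 at 22.97 FPKM in PRP-MNs against 11.1 in PRP, with 63.3 in MNs and 7.47 in NC. The growth factor gene Fgf7 was at 10.9 FPKM in PRP-MNs against 6.76 in PRP, with 20.5 in MNs and 2.72 in NC, so that the 2 microneedle libraries held the upper places for Fgf7 and Crabp1.

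Genes of Wnt signalling, which starts follicle growth, had mostly lower or near-equal transcript levels. The list holds ligands, receptors, inhibitors and targets, and whether signalling itself differed was not tested. Of 27 measured members, 7 were lower and 0 higher (median −0.63), where 7.50% of all genes were lower. PRP-MNs was the lowest library for 22. The ligands Wnt7b (2.11 FPKM in PRP-MNs against 15.2 in PRP, with 5.13 in MNs and 26.3 in NC), Wnt10a (2.98 FPKM in PRP-MNs against 14.2 in PRP, with 8.47 in MNs and 18.8 in NC) and Wnt3 (3.001 FPKM in PRP-MNs against 13.4 in PRP, with 5.28 in MNs and 21.8 in NC), which keratinocytes make, were the largest. Each was highest in NC and lowest in PRP-MNs. Wnt4 (6.80 against 15.6 FPKM), the receptor Fzd10 (2.89 against 8.12 FPKM) and the modulators Sfrp4 (4.78 against 13.8 FPKM) and Dkk3 (1.70 against 4.78 FPKM) completed the 7. The target gene Axin2, a readout of the pathway, was at 2.04 FPKM in PRP-MNs against 4.17 in PRP, with 5.74 in MNs and 4.59 in NC. Between PRP-MNs and PRP it was under 2-fold after the pseudocount, and beta-catenin (Ctnnb1) differed by 0.08.

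Among hedgehog genes, Shh, the ligand, reached 2.28 FPKM in PRP-MNs, about 112 fragments, while PRP lists it at 0. Its target genes did not differ 2-fold, with Ptch1 at 3.51 against 2.76 FPKM and Gli1 under 1 FPKM in both. Gas1, a co-receptor, was lower (8.16 against 19.6 FPKM). Of 18 measured bone morphogenetic protein genes, 3 were higher and 3 lower, where 9.54% of all genes were higher and 7.50% lower. The higher ones included the antagonist Fst (27.1 against 8.86 FPKM) and the target Id2 (34.2 against 14.5 FPKM), and the lower ones the ligand Bmp7 (2.27 against 6.62 FPKM), the antagonist Grem1 (1.18 FPKM in PRP-MNs against 4.31 in PRP, with 17.3 in MNs and 2.47 in NC) and the target Id4 (1.72 against 8.07 FPKM). Bmp4 was at 2.37 against 3.98 FPKM.

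Of 28 measured genes of growth factors that platelets carry, hair growth factors and their receptors, 4 were higher and 2 lower (median 0.38), shares close to the 9.54% and 7.50% of all genes. The ligands Vegfa (12.6 against 12.3 FPKM), Igf1 (9.97 against 11.7 FPKM), Pdgfa (11.8 against 8.38 FPKM), Pdgfb (9.94 against 7.37 FPKM) and Egf (3.01 against 3.28 FPKM) differed by under 2-fold in these 2 libraries, both of which received plasma. The higher genes included the PDGF receptors Pdgfra (45.6 FPKM in PRP-MNs against 15.6 in PRP, with 59.8 in MNs and 4.75 in NC) and Pdgfrb (19.5 FPKM in PRP-MNs against 7.41 in PRP, with 27.1 in MNs and 2.58 in NC), and Igfbp3 (52.5 against 25.5 FPKM). The lower ones were the keratinocyte receptors Fgfr2 (3.88 FPKM in PRP-MNs against 18.2 in PRP, with 20.96 in MNs and 30.8 in NC) and Fgfr3 (7.81 against 24.04 FPKM). Both PDGF receptors were highest in MNs. Of 15 transforming growth factor beta and activin genes, 6 were higher, among them Tgfb1 (51.3 FPKM in PRP-MNs against 17.6 in PRP, with 34.96 in MNs and 10.1 in NC), and none lower.

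Of 12 platelet genes, 4 were measured. Ppbp, Pf4 (236 FPKM in PRP-MNs against 70.9 in PRP, with 161 in MNs and 21.7 in NC) and Itgb3 (4.85 against 1.68 FPKM) were higher, and Itga2b was at 1.37 against 2.72 FPKM. Ppbp reached 1 FPKM in PRP-MNs alone of this pair. Gp1ba, Gp9, Gp6, Tubb1 and Treml1, which define platelets and their precursors, were under 1 FPKM in both libraries, and Treml1 was listed at 0 in each. Red cell genes were near equal (median −0.18 over 5, Hbb-bs 542 against 612 FPKM).

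Vessels were the other compartment that stood higher. Of 21 blood vessel genes, 15 were higher in PRP-MNs and none lower, with a median of 1.62. Sele and Selp encode the selectins on which leukocytes roll. Sele was at 14.3 FPKM in PRP-MNs against 1.53 in PRP, with 5.64 in MNs and 0.197 in NC. Selp was at 30.6 FPKM in PRP-MNs against 3.29 in PRP, with 9.68 in MNs and 0.520 in NC. Apln, expressed by the tip cells of growing vessels, was at 24.3 FPKM in PRP-MNs against 1.06 in PRP, with 2.87 in MNs and 0.277 in NC. Angpt2, which loosens vessel walls, was at 12.1 FPKM in PRP-MNs against 1.34 in PRP, with 3.44 in MNs and 0.340 in NC. Esm1 was at 3.77 against 0.361 FPKM and so reached 1 FPKM in PRP-MNs alone of this pair. The general endothelial genes Pecam1 (79.1 FPKM in PRP-MNs against 21.9 in PRP, with 46.5 in MNs and 6.83 in NC), Cdh5 (34.9 against 12.5 FPKM) and Kdr (16.2 against 3.33 FPKM) were higher as well, and Vwf (3.45 against 1.78 FPKM) was under 2-fold. In 15 of the 21 genes PRP-MNs was the highest library and in 6 MNs. Smooth muscle and pericyte genes differed less (median 0.50, 1 of 11 higher), and MNs was the highest library for all 11. Lymphatic genes had no common direction, with Pdpn, which inflamed epithelium and fibroblasts also express, at 125 FPKM in PRP-MNs against 18.7 in PRP, with 84.9 in MNs and 4.996 in NC. Lyve1 was at 2.91 FPKM in PRP-MNs against 6.57 in PRP, with 33.9 in MNs and 7.84 in NC.

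Fibroblast and matrix genes had no common direction. Of 23, 4 were higher and 4 lower, with a median of −0.38, and MNs was the highest library for 19. The lower ones were Col1a2 (133 FPKM in PRP-MNs against 319 in PRP, with 1796 in MNs and 156 in NC), Lum (51 against 108 FPKM), Fbln1 (6.10 against 14.8 FPKM) and Pi16 (11.6 against 42.6 FPKM). Col3a1 was at 289.6 FPKM in PRP-MNs against 552 in PRP, with 1983 in MNs and 226 in NC, under 2-fold between the pair. The higher ones were Thbs1 (477 FPKM in PRP-MNs against 28.7 in PRP, with 96.8 in MNs and 27.6 in NC), the matricellular gene Tnc (48.9 FPKM in PRP-MNs against 12.2 in PRP, with 112 in MNs and 6.17 in NC), Pdgfra and the hyaluronan synthase Has2 (6.39 against 2.08 FPKM). Thbs1, the gene of a glycoprotein that activates TGF-beta, was one in which PRP, at 28.7 FPKM, and NC, at 27.6 FPKM, were close and PRP-MNs far above.

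Several proteases that break down matrix were higher. Of 16 measured, 6 were higher and 0 lower (median 0.90). Mmp13, a collagenase, was at 49.1 FPKM in PRP-MNs against 5.99 in PRP, with 1.40 in MNs and 5.75 in NC. Mmp9 was at 31.4 FPKM in PRP-MNs against 6.49 in PRP, with 7.47 in MNs and 3.41 in NC. Mmp10 was at 7.59 against 0.363 FPKM, Mmp19 at 40.3 against 10.02 FPKM and the aggrecanases Adamts4 and Adamts1 at 22.9 against 0.919 FPKM and 50.6 against 18.2 FPKM. Of these, Mmp10 and Adamts4 reached the limit of 1 FPKM in PRP-MNs alone of this pair. Mmp2, a gelatinase of resting fibroblasts, was at 38.1 FPKM in PRP-MNs against 74.4 in PRP, with 303 in MNs and 40.98 in NC. The inhibitor Timp1 was at 139.6 FPKM in PRP-MNs against 72.04 in PRP. Of 15 coagulation and plasminogen activation genes, 8 were higher and none lower. They included Plaur and the genes of urokinase itself (Plau, 43.5 against 12.7 FPKM) and thrombomodulin (Thbd, 68.1 against 17.1 FPKM), while tissue factor (F3) was at 44.2 against 40.7 FPKM.

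In skeletal muscle, which lies under the skin, some regulatory genes were higher while most contractile genes lay below PRP by less than 2-fold. Of 19 contractile and metabolic genes, 2 were lower and 1 was higher, with a median of −0.54. Tcap, a titin anchor, was at 106 FPKM in PRP-MNs against 713 in PRP, with 274 in MNs and 442 in NC. Myh4 was at 290.2 against 554 FPKM and Ttn at 15.1 against 29.2 FPKM, while the skeletal actin Acta1 was at 4777 against 4958 FPKM. Of 6 measured among 11 listed regeneration genes, 3 were higher. Myod1, the determination factor of muscle, was at 21.1 FPKM in PRP-MNs against 0.570 in PRP, with 1.77 in MNs and 0.375 in NC. Myog, which drives its differentiation, was at 81.9 FPKM in PRP-MNs against 6.03 in PRP, with 3.65 in MNs and 1.49 in NC. Myl4 was at 19.7 FPKM in PRP-MNs against 4.56 in PRP, with 2.04 in MNs and 1.60 in NC. Of the higher ones, Myod1 reached 1 FPKM in PRP-MNs alone of this pair. Pax7, Myf5 and the fusion gene Mymk were under 1 FPKM in both libraries. The summed level of the contractile list was 12563, 16858, 9076 and 9737 FPKM (order: PRP-MNs, PRP, MNs, then NC), and a differing share of muscle in the pieces of skin was not tested. No adipocyte gene of 13 differed 2-fold (Adipoq 48.8 against 58.3 FPKM). Among Schwann cell genes 1 of 11 was higher (median 0.39), near the 9.54% of all genes that were.

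Stress and signalling lists differed among themselves in how many members passed 2-fold, against 17.0% of all genes in either direction. Ankrd1, a stress-responsive gene also used as a YAP target, was at 450.0 FPKM in PRP-MNs against 25.7 in PRP, with 19.1 in MNs and 1.46 in NC, but of the other YAP genes Lats2 (16.2 against 7.50 FPKM) was the one past 2-fold (2 of 14 in all), and Ctgf was at 29.2 against 30.2 FPKM. Of 17 immediate early genes, 6 were higher, among them Atf3 (64.5 against 21.9 FPKM) and Ier3 (119.6 against 34.6 FPKM), and 3 lower, Egr2, Egr3 and Jund. Among 15 oxidative stress genes 4 were higher, including the haem oxygenase Hmox1 (166 FPKM in PRP-MNs against 54.5 in PRP, with 108 in MNs and 35.9 in NC) and the cystine transporter Slc7a11 (11.6 against 2.47 FPKM). Hypoxia genes were near equal (median 0.26 over 15), with Adm higher (20.6 against 6.65 FPKM) and Bnip3 lower (35.4 against 88.1 FPKM). Hspa5, a chaperone of the endoplasmic reticulum, was at 396 FPKM in PRP-MNs against 142 in PRP, with 219 in MNs and 85.9 in NC. Ptgs2, the inducible cyclooxygenase, was at 41.8 FPKM in PRP-MNs against 5.46 in PRP, with 11.3 in MNs and 8.86 in NC and its constitutive relative Ptgs1 at 16.96 FPKM in PRP-MNs against 69.5 in PRP, with 23.6 in MNs and 98.6 in NC, which put them in opposite directions.

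Housekeeping lists were lower in nearly every member, almost always by less than 2-fold. Cytosolic ribosomal protein genes had a median of −0.52 over 82, nuclear-encoded respiratory chain genes −0.44 over 35 and mitochondrially encoded genes −0.38 over 13, with 2, 0 and 0 of them at least 2-fold lower. By any amount, 78, 35 and 13 of them were lower. Each of these medians lay below the lower quartile of all genes (−0.33). Cell cycle genes had a median of 0.03 over 25, with Mki67, a marker of dividing cells, at 8.58 FPKM in PRP-MNs against 12.1 in PRP, with 17.5 in MNs and 17.4 in NC. Ccnd1, which was the 1 higher member, was at 47.6 against 17.6 FPKM. Of 15 clock genes, 3 were lower, Dbp (4.21 FPKM in PRP-MNs against 22.4 in PRP, with 21.6 in MNs and 16.7 in NC), Hlf (0.716 against 3.32 FPKM) and Per3 (1.27 against 4.15 FPKM), and 1 was higher, Nfil3 (23.4 against 5.50 FPKM). The hour of harvest is not in the labels. Hox genes, which mark the position of skin along the body, had 1 of 23 measured lower (Hoxa7, 9.63 against 22.9 FPKM) and none higher. Among all genes, 7.50% were lower and 9.54% higher. The 4 Y-linked genes were within 2-fold, with Ddx3y at 26.4 against 25.6 FPKM.

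The comparison of MNs with NC shares no library with PRP-MNs against PRP, and it was used to see which differences were common to both microneedle libraries. Of the 1323 genes higher in PRP-MNs than in PRP, 730 (55.2%) were at least 2-fold higher in MNs than in NC, where 14.7% of all 13861 genes were, and 13 (0.983%) were at least 2-fold lower. Of the 1039 lower genes, 539 (51.9%) were lower in MNs, where 6.51% of all genes were, and 98 (9.43%) were higher. Across all genes the differences had a Pearson r of 0.55. This is a description across genes, which are not independent, over 4 libraries. PRP-MNs was the highest of the 4 libraries for 1245 of the 1323 higher genes and the lowest for 915 of the 1039 lower ones. Of the lower genes, NC was the highest for 711, PRP for 178 and MNs for 150. Because these genes were picked by PRP-MNs against PRP, PRP could not be highest among the higher genes or lowest among the lower ones. The counts are thus partly set by that choice.

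Lists fell into those that moved the same way in both pairs and those that did not. Monocyte genes (2.17 in PRP-MNs minus PRP, 2.84 in MNs minus NC), blood vessel genes (1.62 and 1.79) and epidermal differentiation (−2.49 and −2.31) had medians of the same sign and over 1 in size. Fibroblast and matrix genes (−0.38 and 2.41), smooth muscle and pericytes (0.50 and 2.01), complement (−0.18 and 2.13) and adipocytes (−0.08 and 1.27) were higher in MNs than in NC by over 1 in the median without being so in PRP-MNs against PRP. Sebaceous genes were lower in PRP-MNs than in PRP and higher in MNs than in NC (−1.10 and 2.47). Whether a difference between the pairs exceeds that between animals was not tested, since each group has 1 library.

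**Figure D4:**
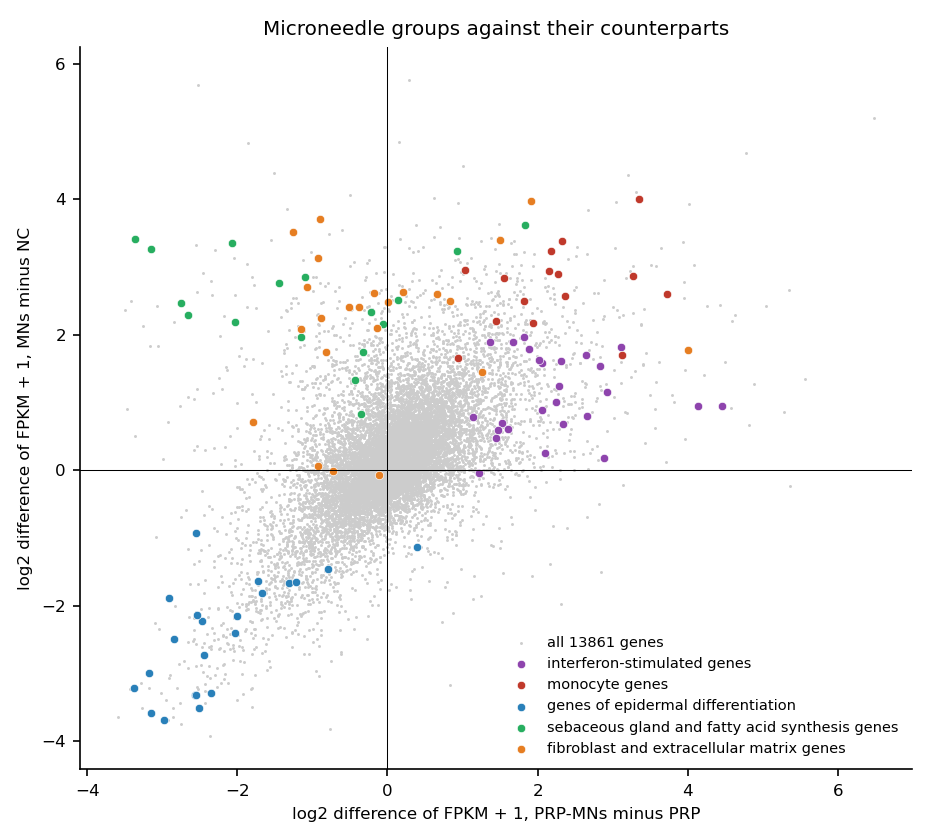
Log2 difference of FPKM + 1 between MNs and NC (vertical axis) against that between PRP-MNs and PRP (horizontal axis), with 1 point per gene for the 13861 genes measured and 5 lists in colour. Epidermal differentiation genes lie mostly in the lower left and monocyte genes in the upper right, while most sebaceous genes lie in the upper left, with medians of −1.10 on the horizontal and 2.47 on the vertical axis.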

How the data were processed

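Skin RNA of 4 groups was sequenced with 1 library each. A NEBNext Ultra kit and 1 μg of RNA were used per library, per the labels' protocols, and GRCm38 is the build named, per the submitters' processing notes. The deposited values are the authors' FPKM, in 1 table. Aligner, counting tool, annotation and strandedness are not given in the sources used here, which leaves overlapping antisense genes uncertain. Of 25571 genes, 3535 carried no Ensembl identifier and were taken as assembled models. Identifiers of 22022 genes matched GENCODE M21 on GRCm38, which gave coordinates and restored 27 symbols that had become dates.

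Depth was estimated from genes with 1 annotated transcript. At the best step, 22.2% of low values in PRP-MNs and 25.3% in PRP lay within 0.02 of a whole fragment, against medians of 3.17% and 3.26% at other steps, so most values did not resolve into whole fragments and a count model was not fitted.

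Differences used a pseudocount of 1 and a limit of 1 FPKM. Named genes were the 15 highest and 15 lowest among those at 5 FPKM or more in PRP-MNs or PRP, leaving out predicted, assembled, mitochondrial and antigen receptor genes, marked members of 67 lists and up to 4 further members of each with the largest difference. Genes listed as under the limit, and some members that complete a short count, were named after their values had been seen. Members and lists were chosen with earlier results of these data known. Of the listed genes, 8 were not analysed here, and values of some others are not reported here. Promoters came from the RefSeq table (GRCm38.p6), matched by symbol, and were printed without the 50 bases after the start. Alternatives were another pseudocount, other limits, centring, rescaling and leaving out assembled models. The calculations were tested on simulated data. Python 3.11.15, numpy 2.4.6 and pandas 2.3.3 were used.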

Additional observations from a re-analysis of the deposited data

Results flagged for a closer look

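In 1 gene list and 5 of the 30 genes with the highest or lowest differences, PRP-MNs differed from PRP at least 2-fold in one direction and MNs from NC at least 2-fold in the other. The difference between the pairs was not tested, since each group has 1 library. Sebaceous gland genes had a median of −1.10 in PRP-MNs minus PRP and 2.47 in MNs minus NC. Far2 differed by −3.36 and 3.41, Elovl3 by −3.15 and 3.27, Serpina3j by −3.42 and 2.50, Rnase2b by −3.26 and 2.12, and Serpina3b by −3.16 and 1.83, in the same order. In these 5 genes the MNs library was the highest of the 4 and PRP-MNs the lowest, while PRP and NC lay within 2-fold of each other.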

How the results depend on the processing

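With 1 library per group, no replicate could be left out. No paired analysis was possible because the groups share no replicates. Among 325 named genes that differed at least 2-fold, none changed sign with a pseudocount of 0.1, after centring or after rescaling to the same sum without mitochondrial genes, and 0, 9 and 6 of them came under 2-fold. A pseudocount cannot turn a sign, and a smaller one only enlarges differences. Centring moved every gene by 0.08, too little to turn a 2-fold difference. For these the outcome on sign was fixed in advance. Counts of genes stayed within 1.5 times of the main ones under each of the 6 alternatives, from 1070 to 1776 higher and from 813 to 1524 lower. Leaving out the limit could not alter them, since genes under 1 FPKM in PRP-MNs and PRP cannot differ 2-fold on FPKM + 1. Centring on the median of all genes gave 1176 higher and 1230 lower genes, so that 48.9% of the differing genes were higher, against 56.0% without it and 60.7% after rescaling. The share of higher genes that were also higher in MNs than in NC was 65.7% with a pseudocount of 0.1, 63.8% with a limit of 5 FPKM, 49.1% after centring, 58.3% after rescaling and 58.6% without assembled models. The share of lower genes that were also lower in MNs was 48.0% with a pseudocount of 0.1. Of 62 list medians, 6 in all moved beyond the binomial interval of the median over their members. With a pseudocount of 0.1 these were Toll-like receptor and inflammasome genes (1.56), Langerhans and dendritic cell genes (1.39) and Hox genes (−0.63). Centring moved ribosomal protein genes to −0.60, and rescaling moved skeletal muscle genes to −0.47 and respiratory chain genes to −0.37. The sign of 5 medians, each under 1 in size, turned under 1 alternative: lymphatic vessel genes without a limit (0.29), with a limit of 5 FPKM Langerhans and dendritic cell genes (−0.22), hedgehog genes (−0.27) and peptide receptors (−0.44), and cell cycle genes after centring (−0.05).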

Other observations

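These groups were picked after their values had been seen and are given as descriptions. In the epidermal differentiation complex, between Lor and Rptn on chromosome 3 from 92080271 to 93399442 (GRCm38), 28 of 49 measured genes lay 2-fold or more below PRP in the PRP-MNs library and 4 lay above. The late cornified envelope genes there went separate ways. All 14 Lce1 genes, which are expressed in intact epidermis, were at least 2-fold lower, with a median of −2.47 (Lce1m 56.8 against 418 FPKM, Lce1j 10.7 against 93.8 FPKM). The 6 Lce3 genes, which are known to be switched on after the barrier is broken, lay above PRP by 0.73 to 1.54, and 2 passed 2-fold, Lce3b (25.8 FPKM in PRP-MNs against 8.18 in PRP, with 2.35 in MNs and 8.56 in NC) and Lce3d (114 FPKM in PRP-MNs against 43.1 in PRP, with 20.1 in MNs and 44.1 in NC). PRP-MNs was the highest library for all 6. In MNs against NC the Lce3 genes were lower (median −1.48, 6 of 6 at least 2-fold), as were the Lce1 genes (−3.28), so that MNs did not share the Lce3 levels of PRP-MNs. Near-identical copies in both families make single values uncertain. Among the small proline-rich genes of the same complex, Sprr1a was at 645 against 266 FPKM. The Sprr2 genes went both ways. Sprr2b was at 7.50 FPKM in PRP and listed at 0 in PRP-MNs, and Sprr2d was at 44.3 against 81.1 FPKM. Sprr2g (34.4 against 17.9 FPKM) and Sprr2h (62.1 against 48.5 FPKM) lay above PRP, both under 2-fold.

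All 11 Skint genes, a mouse family of epidermis and thymus, were lower by 2-fold or more (median −2.66). Skint9 was at 7.32 FPKM in PRP-MNs against 62.3 in PRP, with 9.48 in MNs and 134 in NC. Skint3 was at 6.98 FPKM in PRP-MNs against 47.02 in PRP, with 15.3 in MNs and 92.3 in NC. Of 5 measured Trem family genes 4 were higher, with Trem3 at 10.5 against 0.596 FPKM, Treml2 at 15.7 against 1.86 FPKM and Treml4 at 4.16 against 0.223 FPKM, and Trem2 at 13.6 against 7.29 FPKM was under 2-fold. Of the higher ones, Trem3 and Treml4 reached the limit of 1 FPKM in PRP-MNs alone of this pair.

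Neighbouring genes on chromosome 5 from 90759360 to 91148432 (GRCm38) did not share a direction. From Cxcl5 to Cxcl2 all 6 measured chemokine genes (Cxcl5, Ppbp, Pf4, Cxcl3, Cxcl1 and Cxcl2) exceeded PRP by 2-fold or more. Of the EGF receptor ligands that follow, Epgn was at 66.8 against 54.01 FPKM and Areg at 16.9 against 8.12 FPKM, both under 2-fold, and Ereg between them was lower by the difference given above. On chromosome 11, from 82035571 to 82116799, 4 of the 5 chemokine genes between Ccl2 and Ccl8 were higher, and Ccl11 was not.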
